A study of Mus musculus with 16 samples.

Results

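The genes described here are 10 genes of epidermal growth factor (EGF) signaling in the mouse small intestine. They are the receptors Egfr, Erbb2 and Erbb3, the ligands Hbegf, Areg, Tgfa, Ereg and Btc, and the feedback inhibitors Lrig1 and Errfi1. They were picked by gene symbol from the 48440 genes listed for each segment, and each symbol was found once in the tables of the duodenum, jejunum and ileum. The rule uses no measured value. RNA-Seq was made of GFP-positive (GFP+) epithelial cells of female Lgr5-EGFP mice. Their stem cell gene Lgr5 drives a green fluorescent protein, so that the sort aimed at stem cells and the young progenitors that still carry the protein. Markers of other cell types were also present in the libraries, as given below. All mice carried this reporter, had eaten a 60% fat diet for 16 weeks, and were fasted overnight and euthanized 15 minutes after a liquid meal, 4 weeks after surgery. The surgery was vertical sleeve gastrectomy (VSG), which removes most of the stomach along its greater curvature, or a sham operation in which the stomach was only pressed with forceps. The age of each mouse was not in the labels, and the methods give 8 to 16 weeks for the animals of the whole study, which the weeks of diet and those after surgery together exceed. The same 6 mice, 4 with VSG and 2 with sham surgery, gave the duodenal and the jejunal libraries, whereas only 2 libraries of each surgery came from the ileum. A replicate number stands for the same mouse in every segment, so 7 mice gave the 16 libraries, and the ileal VSG libraries are replicates 4 and 5.

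EGF family ligands are made as membrane proteins, are cut from the cell surface, and bind ErbB receptors, which then pair and switch on the RAS and MAP kinase and PI3 kinase cascades. Erbb2 binds no ligand of its own and Erbb3 has little kinase activity, so that both work by pairing with another receptor. In the crypt, EGF signaling is known to drive the division of stem and progenitor cells, and it is held back by Lrig1, a membrane protein that promotes loss of ErbB receptors, and by Errfi1 (also called Mig6), which binds and blocks the kinase from inside the cell.

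Implied sequencing depth was 33.7 to 63.6 M reads in the duodenal libraries, 22.2 to 57.8 M in the jejunal libraries and 10.9 to 36.4 M in the ileal libraries. Among the marker lists, epithelial genes had the largest sums. The 10 enterocyte markers summed to 0.741% to 5.05% of a library, the 10 stem cell markers to 0.0251% to 0.384%, and the 8 measured Paneth markers to 0.0139% to 0.862%. The 8 immune markers summed to at most 0.00377% and the 10 stroma markers to at most 0.00556%, after a sort that had removed CD45+ and CD31+ cells. The defining marker Lgr5 was listed at 0 in sham replicate 1 of both the jejunum and the ileum, where the stem cell gene Olfm4 had 7345 and 795 normalized counts. In jejunal VSG replicate 1, Fabp6, an ileal bile acid binding protein, had 196951 normalized counts, against 15.8 to 313 in the rest of the jejunum and 29162 to 208801 in the ileal libraries. Fold changes that moved most without these libraries are also given without them. Some marker lists of other cell types moved with surgery. The enterocyte markers summed to 0.741% to 1.56% of duodenal libraries after VSG and 1.70% to 2.37% after sham surgery, and all 10 had a lower fitted level after VSG in both of the upper segments. The tuft cell markers summed to 0.0438% to 0.0933% and 0.0136% to 0.0302% in the duodenum, where all 7 were higher after VSG with an unadjusted limma p under 0.05. Of all duodenal genes tested, 6.27% had such a p in either direction. In the jejunum the sums overlapped, at 1.68% to 2.995% and 2.61% to 5.05% for enterocyte markers and at 0.0266% to 0.0798% and 0.0032% to 0.0427% for tuft cell markers. All 7 tuft cell markers had a higher fitted level there too, 5 with an unadjusted limma p under 0.05, beside 6.04% of all genes. All 7 goblet markers were higher in both upper segments, and of 8 Paneth markers 7 in the duodenum and 8 in the jejunum. Of 8 enteroendocrine markers 7 and 4 were higher, beside 50.7% and 55.0% of all genes. The sums of these last lists overlapped between surgeries. The part of these lists in the changes below was not tested. In bulk libraries such as these, fewer cells of a type and less RNA per cell cannot be told apart.

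To compare levels between genes, normalized counts were divided by the length in kilobases (kb) of the longest annotated coding transcript. Erbb3 had the highest level per kb of the 10 genes in every segment, with 2400.4 ± 611 (mean ± SD, n = 6) in duodenal, 2149 ± 609.8 (n = 6) in jejunal and 1728 ± 198 (n = 4) in ileal libraries. Erbb2 followed among the receptors, with 1774 ± 379, 1328 ± 299.7 and 939 ± 491. Egfr, the receptor that binds EGF and the 5 ligands here, was far lower, with 145 ± 64.1, 92.7 ± 85.0 and 28.7 ± 27.3. Among the ligands, Hbegf and Areg stood at the top in the duodenum and jejunum, with 984 ± 643 and 602 ± 451 per kb in the duodenum and 1081 ± 541 and 849.5 ± 502 in the jejunum. Btc stayed low in every segment, with 101 ± 57.7, 58.5 ± 62.9 and 25.0 ± 30.4 per kb. Most neighbours in this order cannot be parted: of all neighbouring pairs in the 3 segments, only Btc and Ereg in the duodenum had ranges over libraries that did not overlap. Levels as deposited, without division by length, moved Areg, whose transcript is short, from place 6 to 8 in the duodenum. Divided by the length of all exons joined, Areg stood above Hbegf in all 3 segments, and Erbb3 kept the first place.

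**Figure D1:**
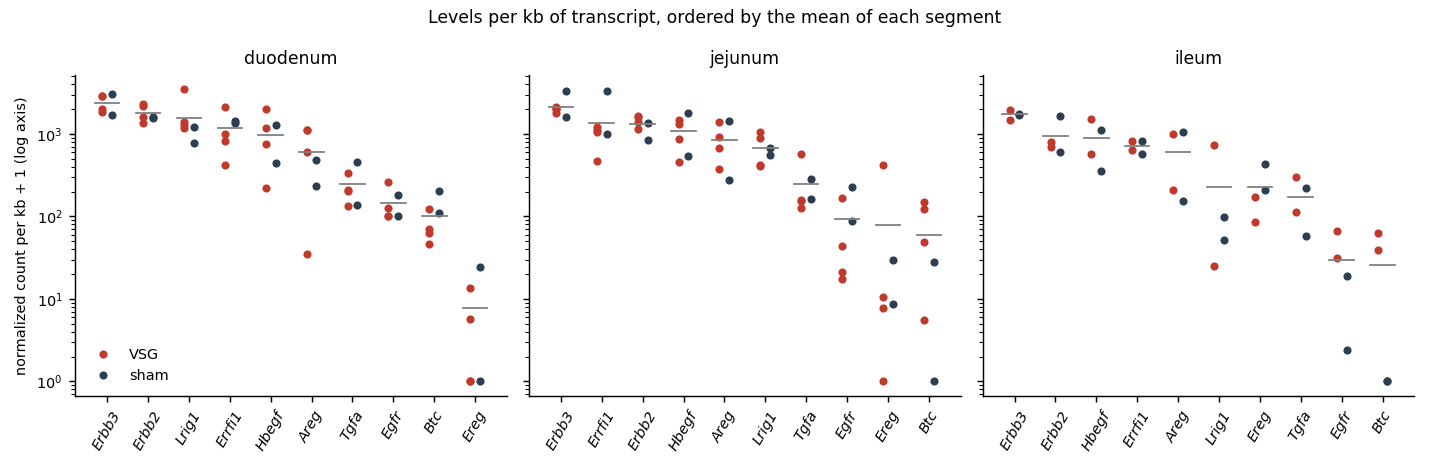
Normalized count per kb of the longest coding transcript (log axis, 1 added) for each of the 10 genes in the duodenum (6 libraries), jejunum (6) and ileum (4), ordered by the mean of each segment. Each point is a library, red after VSG and dark blue after sham surgery, and the gray line is the mean over all libraries of the segment. Erbb3 leads in each panel, Egfr and Btc sit near the bottom, and by the mean Ereg is last only in the duodenum. The jejunal mean of Ereg exceeds that of Btc through VSG replicate 1. Ereg lay above Btc in 2 of the 6 jejunal libraries, with medians per kb of 8.70 and 37.4.

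Most other genes of the ErbB family were close to silent in these cells. Erbb4, the remaining receptor of the family, was listed at 0 in 13 of 16 libraries and reached 29.6 normalized counts. Epgn was listed at 0 in 14 of 16 libraries, and the neuregulins Nrg1, Nrg2 and Nrg3, ligands of Erbb3 or Erbb4, were each at 0 in at least 13. Nrg4, a ligand of Erbb4, was the exception among the neuregulins, with 0 to 861 normalized counts. Per kb it had 255 ± 135 in the duodenum and 129 ± 62.2 in the jejunum, above the means of Egfr, Btc and Ereg there. Egf itself had 0 to 155 normalized counts in 15 of the libraries and 1516 in jejunal VSG replicate 1.

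Erbb3 (ENSMUSG00000018166, chromosome 10, 128567523 to 128589652, minus strand, GRCm38) varied little. In the duodenum its normalized counts were 11232, 17332, 12069 and 17214 after VSG and 18612 and 10185 after sham surgery, and in the jejunum they were 12890.3, 12031, 10808 and 12261 after VSG and 20017 and 9567 after sham surgery. Sham replicate 1 was the highest library in both segments and sham replicate 2 the lowest, so the VSG libraries lay between the sham libraries. The ileal libraries held 8944 and 11843 after VSG and 10253 and 10545 after sham surgery, again with the sham libraries inside the range of the VSG libraries. The fitted log2 fold changes of VSG over sham (± SE) were 0.04 ± 0.30 for the duodenum, -0.21 ± 0.35 for the jejunum and -0.01 ± 0.33 for the ileum, with limma adjusted p-values of 0.984, 0.864 and 0.998. Without jejunal sham replicate 2, which leaves sham replicate 1 alone, the jejunal value became -0.74 with a limma adjusted p of 0.104, and without sham replicate 1 it turned to 0.32.

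Erbb2 (ENSMUSG00000062312, chromosome 11, 98412470 to 98437716, plus strand) was similarly even over the duodenal and jejunal libraries, but less so over the ileal ones. Duodenal normalized counts were 11052, 6878, 8076 and 11477 after VSG and 7730.3 and 8129.9 after sham surgery. Jejunal libraries held 7967, 5734, 8217 and 7071 after VSG and 6749 and 4187 after sham surgery, and the lowest of them was sham replicate 2. In the ileum the values were 3456 and 4031 after VSG and 2999.5 and 8347 after sham surgery, where sham replicate 2 was the highest and sham replicate 1 the lowest. The groups overlapped in every segment. Log2 fold changes were 0.21 ± 0.26, 0.43 ± 0.33 and -0.42 ± 0.59 from duodenum to ileum (limma adjusted p = 0.912, 0.774 and 0.794).

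Egfr (ENSMUSG00000020122, chromosome 11, 16752203 to 16918158, plus strand) was the receptor that varied most. In the duodenum its normalized counts were 1283, 2631, 1019.5 and 1031 after VSG and 1875 and 1019 after sham surgery, with VSG replicate 2 the highest and the groups overlapping. Jejunal Egfr was 169.9, 204, 1678 and 436 after VSG and 898 and 2294 after sham surgery. Of the 4 VSG libraries, 3 lay below both sham libraries and replicate 3 lay between them. In the ileum it was 671 and 306 after VSG and 14.3 and 181 after sham surgery, so both VSG libraries exceeded both sham libraries. The fitted changes thus had opposite signs, -1.84 ± 0.94 in the jejunum and 3.10 ± 1.93 in the ileum, beside -0.01 ± 0.47 in the duodenum. Without ileal sham replicate 1 the ileal value was 1.32, and the jejunal value was -2.52 without sham replicate 1, -1.17 without sham replicate 2 and -1.43 without VSG replicate 1. None passed, with limma adjusted p-values of 0.760, 0.736 and 0.998, and whether the jejunal and ileal changes differ was not tested. The ileal value rests on low counts: sham replicate 1, at 14.3, was the library with Lgr5 listed at 0. As counts per 1 M normalized counts of a library, Egfr ranged from 21.2 to 55.7 in duodenal, 5.08 to 68.0 in jejunal and 0.573 to 30.5 in ileal libraries. Here and for the genes that follow, levels set side by side across segments are a description, since the 3 tables were normalized separately.

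Hbegf (ENSMUSG00000024486, chromosome 18), which encodes heparin-binding EGF-like growth factor, is a ligand of Egfr that binds heparin-like sugars at the cell surface. In the duodenum its normalized counts were 529, 4716, 1812 and 2812 after VSG and 3092 and 1054 after sham surgery. VSG replicate 1 was the lowest library and VSG replicate 2 the highest, so the sham libraries lay inside the VSG range. The jejunal values were 3138, 2094, 1093 and 3533 after VSG and 4271 and 1269 after sham surgery, and the ileal values were 3581 and 1363 after VSG and 2690.3 and 835 after sham surgery. Sham replicate 1 had 2.93, 3.36 and 3.22 times the level of sham replicate 2 from duodenum to ileum, a wider gap than that between the group means in any segment. Log2 fold changes were 0.07 ± 0.78, -0.05 ± 0.59 and 0.56 ± 0.83 in the 3 segments (limma adjusted p = 0.992, 0.984 and 0.812).

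Areg (ENSMUSG00000029378, chromosome 5, 91139599 to 91148432, plus strand) encodes amphiregulin, a ligand that binds Egfr with low affinity, and it lies in a cluster with the ligand genes Ereg (ENSMUSG00000029377, 91074622 to 91093646, plus strand) and Btc (ENSMUSG00000082361, 91357261 to 91402994, minus strand). Duodenal normalized counts of Areg were 40.8, 1356, 741 and 1375 after VSG and 594 and 281 after sham surgery. VSG replicate 1 stood far below every other library, while VSG replicates 2 to 4 exceeded both sham libraries. The jejunum had 811, 1719.8, 454 and 1127 after VSG and 1747 and 334 after sham surgery, with the lowest and the highest value both in sham libraries. In the ileum it was 1228 and 254 after VSG and 1282 and 184 after sham surgery, and each group held a high and a low library. The log2 fold changes were 0.26 ± 1.30, 0.27 ± 0.76 and 0.20 ± 1.38 (limma adjusted p = 0.977, 0.923 and 0.985). Without duodenal VSG replicate 1 the duodenal value was 1.44, with a limma adjusted p of 0.560.

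Tgfa (ENSMUSG00000029999, chromosome 6, 86195223 to 86275719, plus strand), the gene of transforming growth factor alpha, a ligand of Egfr, had duodenal normalized counts of 1530.0, 928, 603 and 955 after VSG and 625 and 2095 after sham surgery. Sham replicate 2 was the highest library, sham replicate 1 was next to the lowest, and the groups overlapped. Jejunal Tgfa was 576, 2617, 721 and 684 after VSG and 1285 and 738 after sham surgery, where VSG replicate 2 stood apart from the other VSG libraries, and ileal Tgfa was 511 and 1355 after VSG and 255 and 1005 after sham surgery. The log2 fold changes, -0.27 ± 0.55, -0.07 ± 0.67 and 0.72 ± 1.07, were all within 1 SE of 0 (limma adjusted p = 0.930, 0.982 and 0.812).

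Ereg, which encodes epiregulin, a ligand of Egfr and Erbb4, was the ligand with the clearest place along the intestine. Its normalized counts were 0, 0, 51.6 and 19.5 after VSG and 96.1 and 0 after sham surgery in the duodenum, where 3 of 6 libraries were listed at 0. In the ileum it had 701 and 348 after VSG and 1791 and 864 after sham surgery, and every ileal library lay above every duodenal library. Per 1 M normalized counts, the ranges were 0 to 1.86 in the duodenum and 15.9 to 71.6 in the ileum. The jejunal values were 1727, 27.6, 0 and 39.8 after VSG and 119.5 and 32.0 after sham surgery. VSG replicate 1 alone reached the ileal range, and it was the jejunal library with Fabp6 at an ileal level. The other 5 jejunal libraries lay at or below 119.5. After VSG the ileal values lay below both sham values, with a log2 fold change of -1.33 ± 0.84 (limma adjusted p = 0.736), or -0.80 without sham replicate 1. The 4 ileal markers, Fabp6 among them, were also lower after VSG in the ileum, with summed levels of 0.171% and 0.395% of the library after VSG and 0.738% and 0.930% after sham surgery, and their part in the Ereg values was not tested. The duodenal and jejunal log2 fold changes, -0.78 ± 2.66 and -0.74 ± 2.82, had standard errors larger than their size, and the jejunal one was -2.58 without VSG replicate 1.

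Btc, which encodes betacellulin, another ligand of Egfr and Erbb4, had normalized counts of 129, 347, 199 and 177 after VSG and 585 and 314 after sham surgery in the duodenum. Sham replicate 1 was the highest library, and only VSG replicate 2 exceeded sham replicate 2. The jejunal values were 432, 138, 12.99 and 348 after VSG and 0 and 76.9 after sham surgery, 3 of 4 VSG libraries exceeding both sham libraries. In the ileum Btc was 177 and 110.4 after VSG and 0 and 0 after sham surgery, so that no fold change can be given against sham libraries at 0. The duodenal log2 fold change was -1.10 ± 0.75 and the jejunal one 3.89 ± 2.42, the latter resting on a sham library at 0 and so on the pseudocount (limma adjusted p = 0.880 and 0.760). Without jejunal sham replicate 1, the library at 0, the jejunal value was 0.75. Ileal Btc passed the filter on low values only through its VSG libraries, and no p-value is given for it, since the sham values of exactly 0 set the spread. Stem cell markers were also higher after VSG in the ileum. Their summed level there was 17002 to 21607 after VSG and 6267 to 10053 after sham surgery, with Lgr5 at 0 in sham replicate 1. In the duodenum VSG replicate 1 had the highest sum, 182281, and the lowest Btc, 129. In the jejunum sham replicate 1 had the lowest sum, 20761, with Btc at 0, whereas VSG replicate 3 had 65359 with Btc at 12.99. The part of these markers in the Btc values was not tested.

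Lrig1 (ENSMUSG00000030029, chromosome 6, 94604529 to 94700158, minus strand) had duodenal normalized counts of 17342, 5819, 6438 and 7016 after VSG and 6077 and 3834 after sham surgery. VSG replicate 1 had 2.47 times the level of the next highest library, and sham replicate 2 had the lowest. Jejunal Lrig1 was 5237, 1999, 2104 and 4386 after VSG and 2737 and 3372 after sham surgery, with the sham libraries inside the VSG range. Ileal Lrig1 was 3657 and 119.8 after VSG and 487 and 253 after sham surgery, where VSG replicate 4 had 7.51 times the level of the next highest library. The log2 fold changes were 0.77 ± 0.43, 0.05 ± 0.46 and 0.92 ± 1.75 (limma adjusted p = 0.860, 0.982 and 0.874). Per 1 M normalized counts Lrig1 ranged from 79.9 to 365 in duodenal, 58.0 to 156 in jejunal and 5.45 to 166 in ileal libraries, and within a mouse it was lower in the jejunum than in the duodenum in 5 of 6 mice.

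Errfi1 (ENSMUSG00000028967, chromosome 4, 150853919 to 150868892, plus strand) had duodenal normalized counts of 1277, 6473, 3049 and 2522 after VSG and 4421 and 4094 after sham surgery. The sham libraries lay close together, and the VSG libraries spread from below to above them. In the jejunum it was 1435, 3751, 3202 and 3447 after VSG and 10112 and 3010.2 after sham surgery. Sham replicate 1 had 2.70 times the level of the next highest jejunal library, whereas sham replicate 2 lay among the VSG libraries. Ileal Errfi1 was 1952 and 2467 after VSG and 2536 and 1752 after sham surgery, with each VSG library between the sham libraries. Its log2 fold changes were -0.59 ± 0.52, -0.99 ± 0.54 and 0.06 ± 0.52 (limma adjusted p = 0.880, 0.760 and 0.988). The jejunal value rested on sham replicate 1, the library with the highest share of enterocyte markers, 5.05%. Without it the log2 fold change was -0.12, and without sham replicate 2, which leaves sham replicate 1 alone, it was -1.86 with a limma adjusted p of 0.192.

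**Figure D2:**
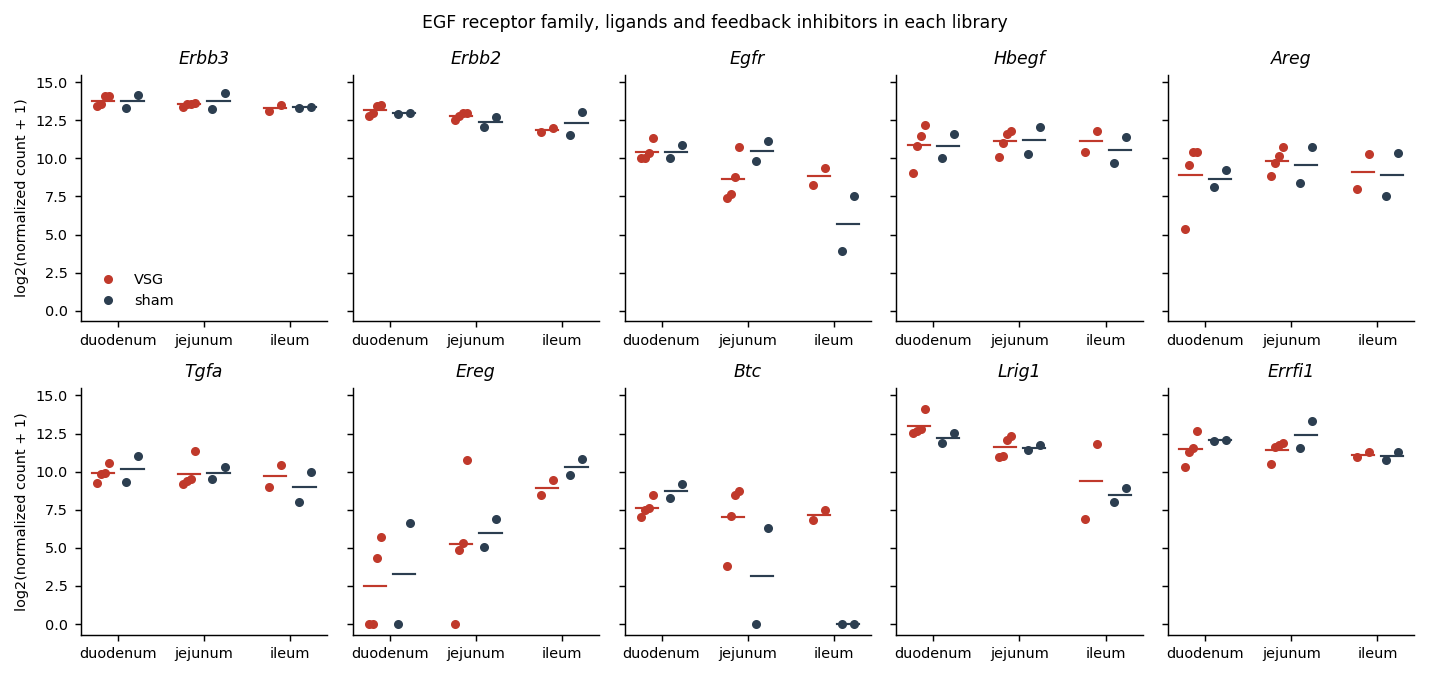
log2(normalized count + 1) of each gene in each library, by segment, with red points after VSG and dark blue points after sham surgery, and a line at each group mean. Erbb3 lies in a narrow band in all 3 segments and Erbb2 in the duodenum and jejunum. Ereg climbs toward the ileum, and the VSG and sham points of most genes overlap. A gene listed at 0 lies on the value 0.

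The study asked whether altered differentiation accounts for a larger number of hormone-producing enteroendocrine cells after VSG. For these 10 genes the limma fit gave no call in any segment at the study's thresholds, which the study had applied to DESeq2 (p under 0.05, adjusted p under 0.2, absolute log2 fold change above 0.5 and mean above 50). Calls made up 0.0237% of all duodenal, 0.0126% of all jejunal and 0% of all ileal genes tested. No member had an unadjusted limma p under 0.05 either, against 6.27% of the 16867 duodenal genes tested, 6.04% of 15857 jejunal genes and 3.28% of 13853 ileal genes. In the duodenum and in the jejunum no member had all VSG libraries on one side of all sham libraries, against 6.44% of all genes above and 8.01% below in the duodenum, and 6.59% above and 6.21% below in the jejunum. In the ileum Egfr lay above and Ereg below, against 17% of all genes above and 11.6% below, shares that include genes with a group at 0. Btc also lay above, but it passed the filter only through that group. Counted with Btc, 2 of the 10 members lay above and 1 below, which is near these shares.

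In the duodenum 5 members had a higher fitted level after VSG and 5 a lower one, with a median log2 fold change of 0.02 over the members and 0.01 over all genes. In the jejunum 4 were higher and 6 lower, with a median of -0.06 against 0.11. In the ileum 7 were higher and 3 lower, with a median of 0.38 against 0.24. The ileal counts and median of members in this paragraph include Btc, whose sham libraries were at 0. Without Btc the ileal median is the value of Areg, 0.20, below that over all genes. The splits between higher and lower moved with the scaling. When each library was scaled to the same total, 7 members were higher and 3 lower in the jejunum, where sham replicate 1 has the largest total, 6 and 4 in the duodenum, and 8 and 2 in the ileum. That scaling raised the median of all genes by 0.22 in the jejunum and 0.11 in the ileum, and quantile normalization changed it by -0.20 in the ileum, where 8 members were then higher. Counted against the median of all genes, 5 duodenal, 3 jejunal and 5 ileal values of members lay above it as deposited, and 5, 5 and 7 after quantile normalization.

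The most that a single gene could show in an exact permutation test was p = 0.0667 with 4 libraries against 2 and p = 0.333 with 2 against 2, two-sided. Over the members this exact permutation test gave p = 0.2 at the lowest in the duodenum and the jejunum. In the ileum Egfr and Ereg reached the smallest value that the design allows, as Btc did with its sham libraries at 0. The change after VSG was also compared between the jejunum and the duodenum in the 6 mice that gave both, with each mouse's jejunal minus duodenal log2 value. No member had an unadjusted limma p under 0.05, against 4.1% of the 14718 genes tested, and every member's limma adjusted p was 0.948 or more. The largest of these differences, jejunum minus duodenum, were 4.99 ± 2.58 for Btc and -1.83 ± 1.25 for Egfr.

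**Figure D3:**
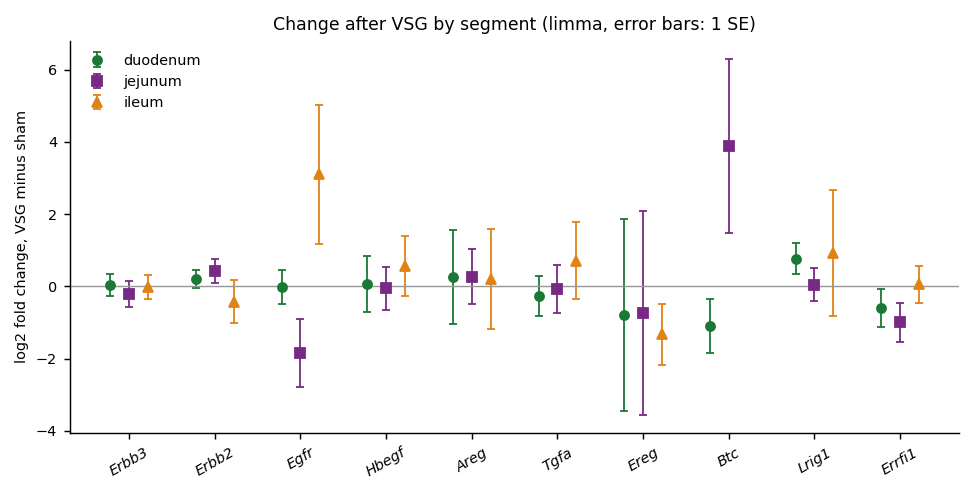
Log2 fold change of VSG over sham for each gene in the duodenum (circles), jejunum (squares) and ileum (triangles), with bars of 1 SE from limma on log2(normalized count + 1). Ileal Btc is not drawn, since the 2 sham libraries were at 0. Most values lie near the line at 0, and the jejunal and ileal values of Egfr lie on opposite sides of it, at -1.84 and 3.10.

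Beyond the members, 73 further genes of the pathway had been listed by role, of which 68 passed the filter on low values in each segment. The 73 include 7 other ErbB receptors and ligands and 4 genes of ligand release and trafficking, besides genes downstream of the receptors. In the duodenum 1 rose and 1 fell at an unadjusted limma p under 0.05, in the jejunum 2 and 3, and in the ileum 2 and 1, and none had an adjusted p under 0.2. Egr3, which passed the filter in the duodenum only through its VSG libraries, is not among them. Here a rise or fall refers to that unadjusted threshold, which 6.27% of all duodenal, 6.04% of all jejunal and 3.28% of all ileal genes tested met. All VSG libraries lay above all sham libraries for 6 of the 68 genes in the duodenum, Egr3 among them, and 2 in the jejunum. The shares over all genes were 6.44% and 6.59%. They lay below for 4 and 6 of the 68, beside 8.01% and 6.21% of all genes. The median log2 fold changes over the pathway genes were 0.04, -0.16 and 0.07, beside 0.01, 0.11 and 0.24 over all genes.

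In the duodenum Rasa1, a GTPase activating protein that switches RAS off, had normalized counts of 2621, 3966, 2920.4 and 2132 after VSG and 668 and 1194 after sham surgery. Each VSG library exceeded both sham libraries, and the log2 fold change was 1.67 ± 0.36 (limma adjusted p = 0.373). Dusp6, a phosphatase that removes the activating phosphates of ERK, had 518, 1418, 814 and 654 after VSG and 1973 and 1419.6 after sham surgery, with every VSG library below the sham libraries, by a narrow margin for VSG replicate 2, and a log2 fold change of -1.08 ± 0.46 (limma adjusted p = 0.773). Egr3, an immediate early transcription factor, had 2.82, 86.4, 68.5 and 91.3 after VSG and 0 and 0 after sham surgery, and being listed at 0 in both sham libraries it is given no fold change.

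In the jejunum the cyclin gene Ccnd1, a driver of the G1 phase of the cell cycle, had normalized counts of 6364, 2442, 5169 and 5024 after VSG and 272 and 2655 after sham surgery. Its log2 fold change of 2.40 ± 0.77 (limma adjusted p = 0.760) rested on sham replicate 1, since sham replicate 2 lay above VSG replicate 2, and it was 0.76 without sham replicate 1. Plcg1, a phospholipase that docks on activated receptors, had 1036, 373, 374 and 792 after VSG and 1894 and 1462 after sham surgery, all VSG libraries lying below both sham libraries (log2 fold change -1.51 ± 0.60, limma adjusted p = 0.760). Map2k2, which encodes the ERK kinase MEK2, had 7667, 6360.3, 5010.0 and 7620.3 after VSG and 14542 and 9195 after sham surgery, also without overlap (log2 fold change -0.82 ± 0.34, limma adjusted p = 0.760), and its value was -0.49 without sham replicate 1. Phlda1, a target of ERK signaling, had 3049, 1787, 568 and 873 after VSG and 133 and 737 after sham surgery in the jejunum and 485 and 163 after VSG and 1989.9 and 1120.1 after sham surgery in the ileum. Its log2 fold change was 2.03 ± 0.85 in the jejunum and -2.40 ± 0.94 in the ileum, so it rose in one segment and fell in the other (limma adjusted p = 0.760 and 0.736), and the difference was not tested. The jejunal value also rested on sham replicate 1, since sham replicate 2 lay inside the VSG range, and it was 0.80 without sham replicate 1.

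In the ileum the immediate early genes Atf3 and Egr1 were higher after VSG. Atf3 had normalized counts of 8274 and 5841 after VSG and 2537 and 2017 after sham surgery (log2 fold change 1.62 ± 0.44, limma adjusted p = 0.736), and Egr1 had 11768 and 12830.0 after VSG and 5998 and 2422 after sham surgery (log2 fold change 1.69 ± 0.52, limma adjusted p = 0.736). Both separated the groups, as did 18 of the 68 tested pathway genes with VSG above sham and 8 with VSG below, beside 17% and 11.6% of all genes. Of these, 1 in each direction was listed at 0 throughout the other group.

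The genes were also compared with each other over libraries. Deviations of each library from its segment's mean log2 level were compared between genes over the 16 libraries, which share mice and, within a segment, a normalization. Areg and Hbegf rose and fell together, with Pearson's r = 0.90 and Spearman's rho = 0.83. Of the 45 pairs among the 10 genes only this one had an r above 0.7, the next highest being 0.63 for Erbb3 and Hbegf and the lowest -0.42 for Tgfa and Hbegf. Among 10712 genes searched, Hbegf was the gene most like Areg and Areg the gene most like Hbegf. Within segments the r of Areg and Hbegf was 0.93 for the duodenum (n = 6), 0.78 for the jejunum (n = 6) and 0.96 for the ileum (n = 4), and 0.83 over the 14 libraries left without duodenal VSG replicate 1 and ileal sham replicate 2, the libraries farthest from the median of Areg.

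Immediate early genes switch on within minutes of a stimulus or of cell stress. Of the 17 listed immediate early and ERK target genes 13 were in the search, and 6 of them had an r above 0.5 with Areg, 6 with Hbegf and 6 with Errfi1, beside 6.43%, 6.18% and 9.22% of all genes searched. The median r over the 13 was 0.36 for Areg, 0.41 for Hbegf and 0.46 for Errfi1, beside 0.06, 0.06 and -0.01 over all genes. Examples chosen after their values were seen are Atf3, Fos and Egr1. For Areg, r was 0.79 with Atf3, 0.71 with Fos and 0.59 with Egr1, and for Hbegf it was 0.71, 0.77 and 0.62. Errfi1 varied with Fos (r = 0.87) and also with the enterocyte markers Slc5a1 (r = 0.89) and Sis (r = 0.86). Its nearest genes were Rhob (r = 0.94), Abcg5 (r = 0.92) and Ghitm (r = 0.90). The 2 inhibitors did not vary together (r = -0.36). Lrig1 lay with Scaf11 (r = 0.89), Ncald (r = 0.86) and Lrrc14 (r = 0.85), and opposite the enterocyte marker Lct (r = -0.74).

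Egfr varied with the Paneth cell marker Lyz1 (r = 0.79), and its nearest genes were Sh2d4a (r = 0.86), Ghdc (r = 0.86) and Nrf1 (r = 0.84). Of the 10 stem cell markers, those named here for Btc are Ascl2 (r = 0.77), Olfm4 (r = 0.74) and Lgr5 (r = 0.68). In the duodenum, though, Btc was lowest (129) in VSG replicate 1, where Lgr5 (6565) and Olfm4 (79817) were highest. The genes nearest to Btc were 1600020E01Rik (r = 0.95), Mir17hg (r = 0.94) and Fbxl15 (r = 0.94). Erbb3 was most like Tnrc6b (r = 0.87), Chmp4c (r = 0.86) and Pnrc1 (r = 0.84), and Erbb2 like Casc3, Basp1 and Pex13 (r = 0.85, 0.85 and 0.84). The genes nearest to Areg after Hbegf were Arl4a (r = 0.89) and Ppp1r15b (r = 0.87), and those nearest to Hbegf after Areg were Ier5 (r = 0.89) and Gm11437 (r = 0.88). Ereg lay with Llgl2 (r = 0.84), Myh14 (r = 0.82) and Srd5a3 (r = 0.81), and Tgfa with Tatdn3 (r = 0.84), Ttn (r = 0.82) and Fam126b (r = 0.81). Such values are the highest of a long search and carry no test. The cell type markers named in this and the preceding paragraph were picked with their values in view and do not stand for their whole lists.

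Duodenal VSG replicate 1 stood at an end of the range for several of these genes. It had the highest Lrig1 of the duodenum, at 17342 normalized counts, and the highest Lgr5, at 6565. It also had the lowest Areg (40.8), Hbegf (529) and Errfi1 (1277) of the duodenal libraries. Fos, at 13907, Atf3, at 363, and the enterocyte marker Sis, at 39932, were lowest there too, and the 10 enterocyte markers summed to 0.741% of the library, the least of all libraries. At the other end, jejunal sham replicate 1 had the highest Errfi1 (10112), Hbegf (4271), Areg (1747), Fos (56851) and Sis (293169) of the jejunal libraries. The part of cell composition and of handling after euthanasia in these differences was not tested.

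**Figure D4:**
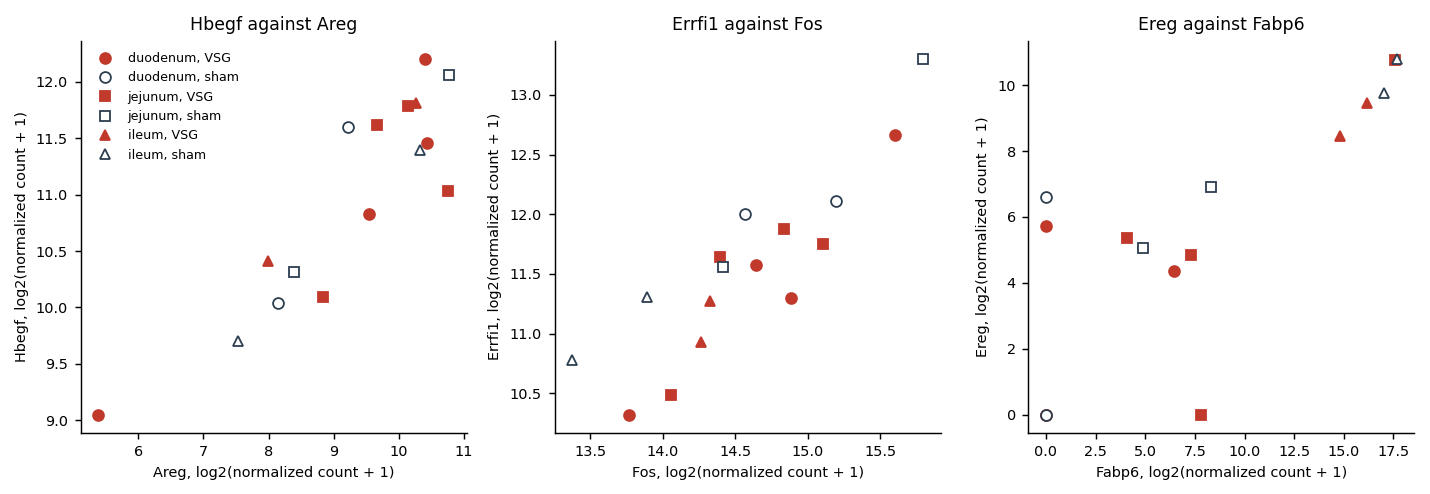
Each point is a library, on axes of log2(normalized count + 1): Hbegf against Areg, Errfi1 against Fos and Ereg against Fabp6, with circles for the duodenum, squares for the jejunum and triangles for the ileum, filled red after VSG and open after sham surgery. Areg and Hbegf climb together, with duodenal VSG replicate 1 at the lower left, and so do Fos and Errfi1. In the last panel jejunal VSG replicate 1 lies among the ileal libraries, and the other duodenal and jejunal libraries lie to the lower left.

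The promoters of Areg and Errfi1 are shown because, among those searched, only these held the letters TGACGTCA. The presence of these letters in both is thus fixed by the choice. Both genes also varied with Fos over the libraries, and a link between the letters and Fos was not tested. Sequences are from RefSeq on GRCm38.p6, where 7 of the 10 genes matched an entry, with 8 promoters, and Ereg, Erbb3 and Hbegf did not. Both strands were searched for the cyclic AMP response element TGACGTCA, a site for CREB and ATF factors, for the AP-1 site TGANTCA, bound by Fos and Jun, and for the TATA box TATAAA. The 250 bases before the transcription start follow 5′ to 3′ on the plus strand, with TGACGTCA and TATAAA in capitals, for Areg at chr5:91139349-91139598 and for the downstream start of Errfi1 at chr4:150854820-150855069.
Areg: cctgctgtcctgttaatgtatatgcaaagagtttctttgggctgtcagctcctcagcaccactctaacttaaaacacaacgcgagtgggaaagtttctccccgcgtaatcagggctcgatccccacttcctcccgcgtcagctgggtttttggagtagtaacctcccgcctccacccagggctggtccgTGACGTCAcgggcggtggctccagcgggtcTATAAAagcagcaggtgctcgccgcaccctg
Errfi1: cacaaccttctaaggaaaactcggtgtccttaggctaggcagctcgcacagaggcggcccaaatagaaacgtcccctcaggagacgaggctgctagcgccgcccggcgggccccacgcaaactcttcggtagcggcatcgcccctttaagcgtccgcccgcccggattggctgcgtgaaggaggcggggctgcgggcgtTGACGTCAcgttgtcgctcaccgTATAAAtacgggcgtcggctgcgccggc
In Areg the TGACGTCA lay 61 to 54 bases before the start and the TATAAA 31 to 26 bases before it. In Errfi1 the same letters lay 51 to 44 and 28 to 23 bases before the start. Of all 32851 RefSeq promoters 1.79% held TGACGTCA and 13.6% held TATAAA. All windows searched had the same length and ran on beyond the printed bases, past the transcription start, for Areg to position 91139648. None of the 8 promoters of these genes held TGANTCA, which 7.81% of all promoters did, and among the promoters of the 7 matched genes no others held TGACGTCA or TATAAA. A match describes letters in this window and was not tested for binding.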

How the data were processed

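RNA-Seq was made of GFP+ epithelial cells sorted from the duodenum, jejunum and ileum, with single-end reads of 85 nt. Per the labels and methods, the authors mapped reads to mm10 (GRCm38) with STAR 2.5.3a, quantified transcripts with Salmon 0.6.0 and normalized each segment separately with DESeq2. Other libraries with low mapping rates had been left out by the authors and were not analysed here. The deposited values are a signal, normalized counts per gene, and between 74.2% and 92.8% of the low values of a library are whole reads within 0.01, so no count model was run. Deposited fold changes and p-values of the authors' own comparison were not used. Of 48440 gene identifiers, 48058 matched GENCODE M21, the source of positions and lengths.

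In each segment, genes whose mean exceeded 10 were fitted on log2(normalized count + 1) using limma (3.58.1, R 4.3.3) and a variance trend, and p-values were adjusted by the Benjamini-Hochberg method over all genes tested. The pseudocount of 1 can understate the change of low genes. Where single libraries were listed at 0, it can instead enlarge the change or set its sign, as for jejunal Btc and Ereg. The jejunal minus duodenal value of each mouse was fitted likewise. Exact permutation tests were two-sided. The steps were tested on simulated data. Each library of a group came from another mouse per the labels, and p-values measure the spread between these libraries. The smallest step between values shows that 1 read was worth 0.586 to 2.07 normalized counts, and a listed 0 allows up to 3 reads, counting error only, and may also be a transcript lost in quantification.

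The genes and lists were chosen with earlier results of these data known. All 10 genes are named with every value, together with pathway genes at an unadjusted p under 0.05 (at most 4 per segment) and, for each member, the 3 genes with the highest Pearson's r over libraries among genes with a mean above 50 in all tables. Other marker and immediate early genes were picked with values in view, as was the r of 0.5. Settings tried besides were leaving out each library in turn, equal totals, quantile normalization, no variance trend, a block for the replicate number, a mean filter of 50 or none, and a pseudocount of 0.5 or 10. Tables and plots came from Python 3.11.15 (matplotlib 3.10.9, scipy 1.17.1, pandas 2.3.3, numpy 2.4.6).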

Additional observations from a re-analysis of the deposited data

Results flagged for a closer look

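A library far from the others of its group was looked for in 27 groups of 4 libraries of the named genes, on the log2 scale, and 3 were found. Chance flags about 1 in 20 groups. Errfi1 in the jejunum had 1435 normalized counts in VSG replicate 1, against 3202 to 3751 in the other VSG libraries. That library also held the ileal gene Fabp6 at 196951 normalized counts. Tgfa in the jejunum had 2617 in VSG replicate 2, against 576 to 721 in the other VSG libraries. Egr3 in the duodenum had 2.82 in VSG replicate 1, against 68.5 to 91.3 in the other VSG libraries, and it was listed at 0 in both sham libraries. The causes were not tested.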

How the results depend on the processing

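With 2 sham libraries per segment, single libraries set the sign of most small changes. Of 648 alternative values of single genes, 72 changed sign, 53 of them among 274 that left out 1 library, and 10 newly had an adjusted p under 0.2. The causes were not tested. The ileum had 2 libraries against 2, and the depth of ileal sham replicate 2 was 10.9 M reads.

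In the duodenum, leaving out each library in turn gave 0 to 1 members with a p under 0.05 (Areg without VSG replicate 1, Errfi1 without VSG replicate 2), 3 to 7 members higher after VSG, and 2 to 6 pathway genes with a p under 0.05. Log2 fold changes that changed sign ranged from -0.45 to 0.43 for Egfr, -0.39 to 0.48 for Erbb3, -0.28 to 1.44 for Areg, -4.08 to 2.52 for Ereg, -0.71 to 0.84 for Hbegf and -1.14 to 0.60 for Tgfa. In the jejunum, leaving out each library gave 0 to 3 members with a p under 0.05, 0 to 3 past the study's thresholds (Erbb3, Errfi1 and Btc, all without sham replicate 2, where the lone sham value of Btc was 0), 3 to 7 higher after VSG, and 1 to 10 pathway genes with a p under 0.05. The ranges were -0.74 to 0.32 for Erbb3, -0.20 to 0.26 for Lrig1, -0.92 to 1.46 for Areg, -2.58 to 1.00 for Ereg, -0.93 to 0.82 for Hbegf and -0.57 to 0.33 for Tgfa. In the ileum it gave 1 to 2 members with a p under 0.05 (Btc each time, Erbb2 without sham replicate 1, Egfr without sham replicate 2), 0 to 1 past the thresholds (Btc without VSG replicate 5) and 5 to 11 pathway genes with a p under 0.05. The sham libraries of ileal Btc were at 0, which sets its spread, so that its p-values are no evidence of a change. The ranges were -1.16 to 0.32 for Erbb2, -0.22 to 0.19 for Erbb3, -1.54 to 3.38 for Lrig1, -0.21 to 0.32 for Errfi1, -1.20 to 1.59 for Areg, -0.28 to 1.40 for Hbegf and -0.27 to 1.71 for Tgfa. A group left with 1 library is assumed to vary like the other. For the jejunal minus duodenal difference, the ranges were -0.16 to 0.61 for Erbb2, -1.22 to 0.42 for Errfi1, -1.12 to 0.66 for Areg, -2.64 to 2.85 for Ereg, -0.89 to 0.35 for Hbegf and -1.07 to 1.47 for Tgfa.

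Scaling each library to the same total turned duodenal Egfr to 0.0704, jejunal Erbb3 to 0.0188, Hbegf to 0.17 and Tgfa to 0.16, ileal Erbb3 to 0.0943, and the jejunal minus duodenal difference of Hbegf to 0.0287. It gave 7 members higher after VSG and 3 pathway genes with a p under 0.05 in the jejunum. Quantile normalization turned jejunal Hbegf to 0.0683, ileal Erbb3 to 0.0229 and the difference of Hbegf to 0.005, and also gave 3 such pathway genes in the jejunum. A pseudocount of 10 turned jejunal Ereg to 0.0346 and the difference of Areg to -0.0464, and one of 0.5 turned the difference of Ereg to -0.20. Limma without trend gave 0 pathway genes with a p under 0.05 in the jejunum, and in the ileum 1 such gene and 1 member, again Btc with its sham libraries at 0, with a p under 0.05 and past the thresholds.

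A VSG mouse and a sham mouse that share a number are not the same animal, and same-numbered libraries did not deviate together (correlations of -0.05 and -0.03 in the duodenum and 0.05 and 0.01 in the jejunum). With the replicate block, duodenal Egfr was 0.41, Areg -0.78, Hbegf -0.19 and Tgfa 0.058, and jejunal Ereg was 1.82, Hbegf 0.14 and Tgfa 0.33. In the jejunum the replicate block gave 1 member (Egfr) and 1 pathway gene with a p under 0.05 and 7 members higher after VSG. No paired analysis was possible in the ileum because its groups share fewer than 2 numbers.

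By length of all exons joined, added after seeing the data, 2 members of the duodenum, 5 of the jejunum and 5 of the ileum took another rank.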
